A study of Homo sapiens with 4 samples.

Results

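NRF2 (gene NFE2L2), its inhibitor KEAP1 and 7 antioxidant genes that NRF2 is known to drive were followed with and without the HSP70 inhibitor JG342 in MM.1S, a human cell line grown from a multiple myeloma. The 9 genes (NFE2L2, KEAP1, NQO1, HMOX1, TXNRD1, SRXN1, TXN, PGD and OSGIN1) were taken by symbol from a table of 16057 genes, and each symbol had 1 row. JG342 binds the chaperone HSP70 at an allosteric site. The treated group received JG342 at 350 nM for 26 h, and the control group received the solvent DMSO for the same time. Each group had 2 libraries, numbered 1 and 2, which the study's design text calls biological duplicates. The model is 1 cell line at 1 dose and 1 time.

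NRF2 is a transcription factor that partners with small MAF proteins at antioxidant response elements, short DNA sites near genes for detoxification and redox enzymes. Under basal conditions KEAP1 ties NRF2 to the CUL3 ubiquitin ligase, which sends it to the proteasome. Oxidants and electrophiles modify KEAP1, and NRF2 then accumulates. Control is therefore largely at the protein, which transcript levels do not show. Plasma cell cancers secrete large amounts of disulfide-bonded protein, and redox enzymes and proteasomes are heavily used in them.

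The values are TPM, a transcript abundance scaled for transcript length and library total, so levels can be compared between genes. Library totals ran from 994463 to 994718 TPM, and between 1118 and 1418 genes were listed at 0. TPM hold no read depth, so no counting interval can be given. All 8 plasma cell markers checked were present, from CD38 (22.04 to 29.2 TPM) up to JCHAIN (5431 to 10383 TPM), and CD3D and MS4A1, markers of T and B cells, were not analysed here. The summed level of the 8 plasma cell markers was 14356 and 14226 TPM with DMSO and 10104 and 9577 TPM with JG342. Without JCHAIN it was 4449 and 3842 TPM against 4372 and 4146 TPM. That sum joins markers that moved apart. TNFRSF17 went from 761 and 581.5 TPM to 517 and 463 TPM, and PRDM1 from 176.5 and 154 TPM to 220 and 205 TPM. JCHAIN, the immunoglobulin joining chain, went from 9907 and 10383 TPM to 5732 and 5431 TPM, whereas IRF4 was at 353 TPM in both DMSO libraries and at 589 and 615 TPM with JG342. Of 8 markers of other cell types, 6 were in the table, and their summed level was 18.8 and 19.5 TPM with DMSO and 20.3 and 18.1 TPM with JG342. The part of these marker differences in the results below was not tested. In a bulk culture a lower level in every cell and a low level in some cells cannot be told apart.

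The promoters of the 3 genes of this group that fell after JG342 are shown first, because antioxidant response elements are the feature the group is known for. Sequences are from RefSeq (GRCh38.p14) and run from 250 bases before to 50 bases after an annotated start, 5′ to 3′ on the gene's strand. Capitals mark the element core TGACNNNGC, searched on both strands.
TXNRD1, chr12:104215529-104215828, plus strand: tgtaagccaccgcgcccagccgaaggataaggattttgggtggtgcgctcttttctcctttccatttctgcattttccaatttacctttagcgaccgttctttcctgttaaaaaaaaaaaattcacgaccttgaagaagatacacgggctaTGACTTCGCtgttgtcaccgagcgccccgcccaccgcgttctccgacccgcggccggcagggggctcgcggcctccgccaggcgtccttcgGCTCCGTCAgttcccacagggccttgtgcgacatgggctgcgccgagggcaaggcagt
TXN, chr9:110256458-110256757, minus strand: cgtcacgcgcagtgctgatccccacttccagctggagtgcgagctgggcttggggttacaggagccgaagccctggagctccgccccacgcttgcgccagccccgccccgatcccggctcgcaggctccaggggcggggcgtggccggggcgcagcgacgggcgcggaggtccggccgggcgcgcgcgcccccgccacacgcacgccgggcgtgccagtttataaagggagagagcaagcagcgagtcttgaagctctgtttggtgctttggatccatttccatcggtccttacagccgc
SRXN1, chr20:653151-653450, minus strand: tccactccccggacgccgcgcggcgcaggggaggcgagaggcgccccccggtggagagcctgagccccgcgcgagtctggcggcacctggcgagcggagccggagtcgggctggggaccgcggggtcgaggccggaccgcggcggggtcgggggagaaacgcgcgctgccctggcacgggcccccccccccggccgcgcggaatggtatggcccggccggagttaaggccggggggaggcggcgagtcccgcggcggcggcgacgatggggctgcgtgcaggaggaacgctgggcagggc
The TXNRD1 window, at the start annotated in GENCODE release 29 for the accession in the table, held 2 cores. The TXN and SRXN1 windows held none, which says only that these letters are absent from these stretches.

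Promoter windows were found for 8 of the 9 genes, 11 windows in all. Not all were placed at the GENCODE start of the transcript measured. The start used lay 16 bases from it for PGD, 18 for OSGIN1 and 41 for TXN. It lay 170 bases away for SRXN1, 391 for NQO1, 125 and 460 for KEAP1, and 331 and 927 for NFE2L2. HMOX1 had no entry. The element core was present in 4 of the 11 windows, belonging to TXNRD1, PGD and KEAP1, against 13.3% of all 35116 windows of this length. The stretches around the remaining matches follow, with the core in capitals, and with the AP-1 site TGANTCA in capitals for OSGIN1.
TXNRD1, chr12:104286914-104286954, plus strand: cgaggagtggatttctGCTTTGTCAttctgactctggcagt
PGD, chr1:10398847-10398887, plus strand: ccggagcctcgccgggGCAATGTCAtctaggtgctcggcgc
KEAP1, chr19:10502778-10502841, minus strand: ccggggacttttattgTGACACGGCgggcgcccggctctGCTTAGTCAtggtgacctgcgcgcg
OSGIN1, chr16:83953127-83953165, plus strand: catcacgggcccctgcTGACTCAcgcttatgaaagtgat
The second TXNRD1 stretch lies at a downstream alternative start. The AP-1 letters, which did not overlap an element core here, were in 1 of the 11 windows and in 7.71% of all windows. The ATF4 composite site TGATGNAA was in 0 of the 11 and in 3.62% of all windows. Matches of this kind are descriptions of sequence, not evidence of binding.

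With DMSO the order of mean levels was TXN at 807 ± 46.5 TPM (SD, n = 2), PGD at 188 ± 23.0, TXNRD1 at 119 ± 9.28, KEAP1 at 83.5 ± 3.42, SRXN1 at 63.9 ± 0.92, NFE2L2 at 60.6 ± 1.90, HMOX1 at 18.9 ± 1.88, NQO1 at 12.1 ± 2.66 and OSGIN1 at 1.16 ± 0.0849 TPM. Neighbours in this order did not overlap between libraries, although SRXN1 exceeded NFE2L2 by a ratio of only 1.05. TXN lay at percentile 98.7 of the DMSO means of the 12042 genes tested, PGD at 93.4, HMOX1 at 47.5, NQO1 at 36.2 and OSGIN1 at 2.27. With JG342 the order changed in the middle: NFE2L2 stood between TXNRD1 and KEAP1, and its libraries overlapped with both.

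**Figure D1:**
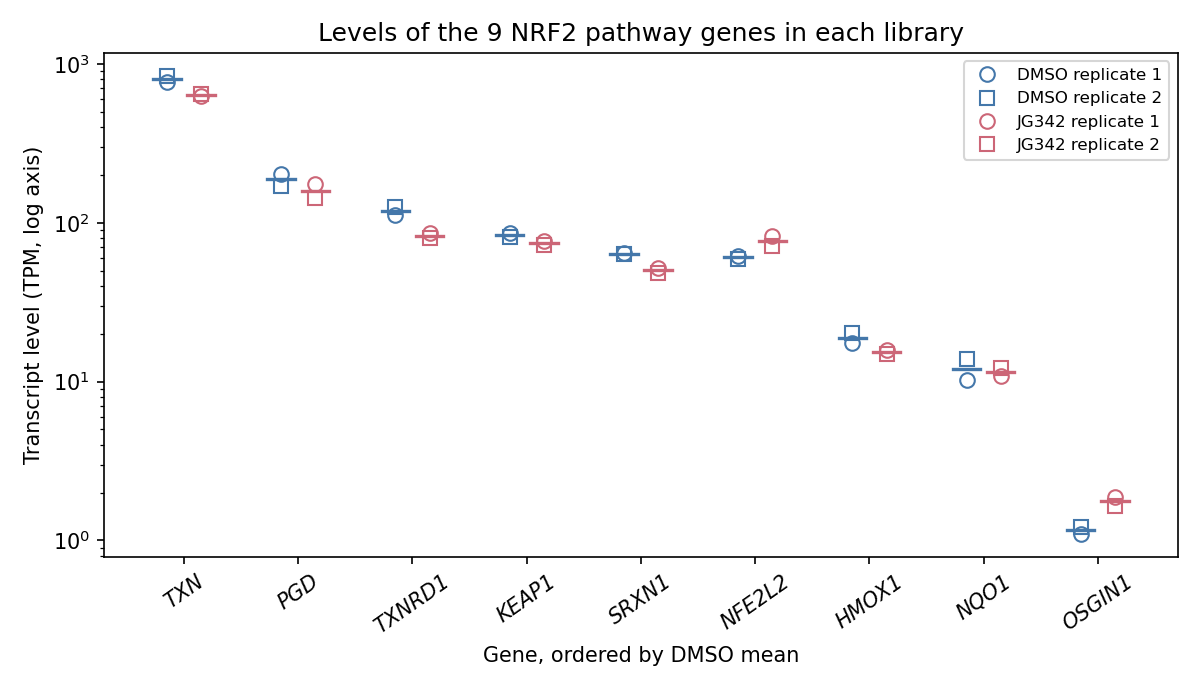
Transcript level in TPM (log axis) of the 9 genes, ordered by their DMSO mean; each symbol is 1 library and each bar the mean of the 2 libraries of a treatment. NFE2L2 and OSGIN1 lie higher in both JG342 libraries, and TXN, TXNRD1, KEAP1, SRXN1 and HMOX1 lie lower in both.

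TXNRD1, TXN and SRXN1 passed the test as lower after JG342, and 0 of the 9 genes passed as higher. NFE2L2, with a log2 fold change of 0.33, missed the threshold (limma adjusted p 0.0639). The test was limma on log2(TPM + 1) over the 12042 genes whose mean reached 1 TPM, which all 9 genes did, with Benjamini-Hochberg adjustment over all 12042 and a threshold of 0.05. At that threshold 18.4% of all genes tested passed, 10.8% as higher and 7.62% as lower. The 3 of 9 genes that fell are read against 7.62%, and the 9 were chosen with earlier results of these data known. With libraries scaled to 1 median the split over all genes turned from 1304 higher and 917 lower to 966 higher and 1200 lower, and the 9 genes still gave 0 higher and 3 lower. The median log2 fold change of the 9 was -0.24, against 0.03 over all genes tested. It was -0.12 without JG342 replicate 2, and with median scaling it was -0.31 against -0.03 over all genes. Folds are differences of log2(TPM + 1), so those of genes at low levels are understated.

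Of the regulators, NFE2L2 (NM_001145412), which encodes NRF2 itself, was at 61.98 and 59.3 TPM with DMSO and at 82.1 and 71.6 TPM with JG342. Both treated libraries were above both controls. The mean was 26.7% higher, a log2 fold change of 0.33 ± 0.11 (SE), but this did not pass (limma adjusted p 0.0639, unadjusted p 0.0135). The 95% interval ran from 0.09 to 0.58. NFE2L2 passed with the replicate block (limma adjusted p 0.00394), a fit that called 34.9% of all genes. With the block and median scaling it also passed (limma adjusted p 0.0315). In 7 other settings that kept all 4 libraries it did not pass. The limma adjusted p was 0.127 without the mean-variance trend. When each library was left out, the log2 fold change ran from 0.24 to 0.43.

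KEAP1 (NM_012289), the adaptor that captures NRF2 for degradation, was at 85.9 and 81.05 TPM with DMSO and 77.1 and 72.6 TPM with JG342. The treated libraries were below the controls by a small margin that did not pass, with a log2 fold change of -0.16 ± 0.10 SE and a 95% interval from -0.38 to 0.07 (limma adjusted p 0.313). The same-numbered pairs gave -0.15 and -0.16. The ratio of NFE2L2 to KEAP1 transcripts within a library, a measure chosen after the values were seen, was 0.722 and 0.732 with DMSO and 1.06 and 0.986 with JG342. The mean log2 ratio was 0.50 higher with JG342, and the exact two-sided permutation p was 0.333, the smallest that 2 libraries against 2 allow.

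The 3 genes that fell all act with thioredoxin, a grouping made after the calls were seen. TXN (NM_001244938) encodes thioredoxin, the small protein that reduces disulfides, TXNRD1 (NM_001093771) the selenoenzyme that recharges it with NADPH, and SRXN1 (NM_080725) sulfiredoxin, which repairs over-oxidised peroxiredoxins. TXNRD1 was at 112 and 125 TPM with DMSO and at 86.1 and 79.7 TPM with JG342. It fell by 0.51 ± 0.10 on the log2 scale, a mean 30.1% below control (limma adjusted p 0.0115), and had the lowest fold change of the 9 genes.

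TXN was at 774 and 840 TPM with DMSO and at 629 and 650.4 TPM with JG342, without overlap. It fell by 0.33 ± 0.09 on the log2 scale, with an adjusted p of 0.0352 from limma. SRXN1 was at 64.5 and 63.2 TPM with DMSO and at 52.0 and 48.1 TPM with JG342, and fell by 0.35 ± 0.10 with an adjusted p of 0.0482 from limma. The decrease of all 3 genes was larger in pair 2 than in pair 1: -0.64 and -0.38 for TXNRD1, -0.37 and -0.30 for TXN, -0.39 and -0.30 for SRXN1.

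These calls were close to the threshold. Without DMSO replicate 2 TXNRD1 no longer passed (limma adjusted p 0.1005), and leaving out any of the 4 libraries ended the call of SRXN1 (0.0723 to 0.191) and of TXN (0.0605 to 0.248). Fitting all genes with no filter on low values also ended all 3 calls, at limma adjusted p 0.0522 for TXNRD1, 0.0808 for SRXN1 and 0.0867 for TXN, and quantile normalization ended that of TXN (0.0611). A fit without the mean-variance trend ended those of SRXN1 (0.0995) and TXN (0.110). SRXN1 shares 85.0% of its transcript, at 100% identity, with the GENCODE protein-coding gene AL121758.1, so how reads were divided there is uncertain. A pseudogene, TXNP6, matches 20.8% of the TXN transcript at 95.5% identity.

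**Figure D2:**
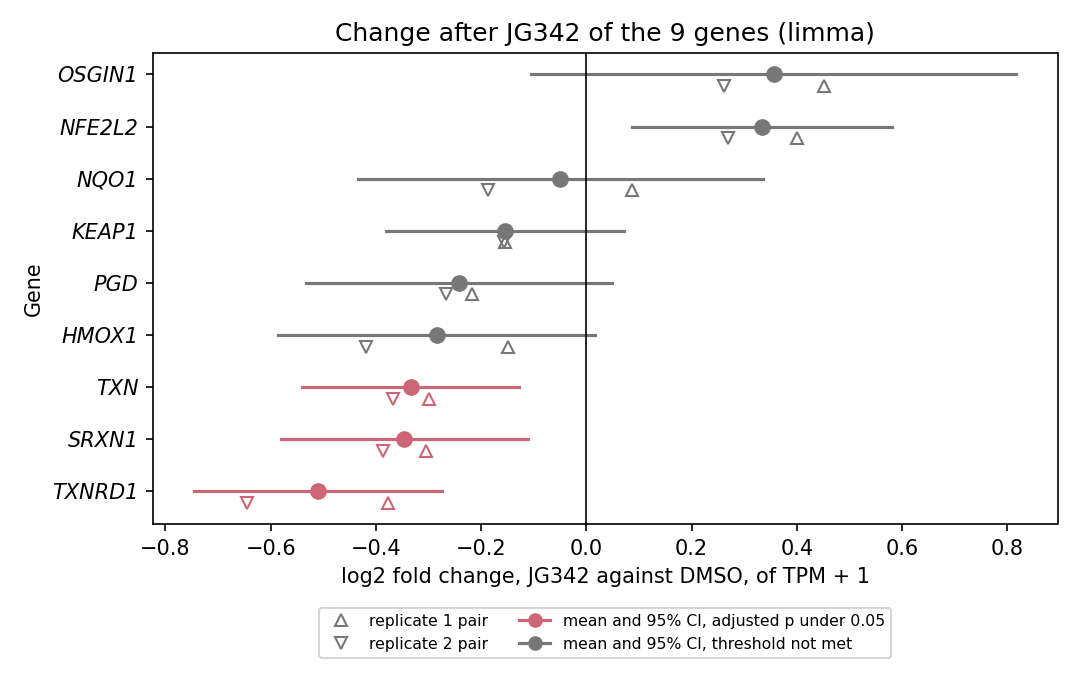
Log2 fold change of TPM + 1, JG342 against DMSO, for the 9 genes; circles and lines are the limma estimate and its 95% interval, triangles the 2 same-numbered pairs, and red marks an adjusted p under 0.05. TXNRD1, SRXN1 and TXN are red and below 0, and NQO1 is the one gene whose pairs lie on both sides of 0.

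The other target genes did not pass. HMOX1 (NM_002133), haem oxygenase 1, which breaks haem down to biliverdin, iron and carbon monoxide, was at 17.6 and 20.3 TPM with DMSO and at 15.8 and 14.9 TPM with JG342. Its treated libraries were both lower, with a log2 fold change of -0.28 ± 0.13 SE (95% interval -0.59 to 0.02, limma adjusted p 0.170). NQO1 (NM_000903), a quinone reductase often used as a readout of NRF2, was at 10.2 and 13.95 TPM with DMSO and at 10.9 and 12.1 TPM with JG342. Both treated libraries lay inside the range of the controls, with a log2 fold change of -0.05 ± 0.17 SE and a 95% interval from -0.43 to 0.34 (limma adjusted p 0.866). The sign turned to 0.16 without DMSO replicate 2 and to 0.02 without JG342 replicate 1.

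PGD (NM_001304451), the NADPH-producing 6-phosphogluconate dehydrogenase of the pentose phosphate pathway, was at 204 and 171 TPM with DMSO and at 175 and 142 TPM with JG342. The treatments overlapped, because replicate 2 was below replicate 1 in both. Within pairs the difference was alike, -0.22 and -0.27. Left-out libraries moved it from -0.39 to -0.09, and the log2 fold change of -0.24 ± 0.13 SE did not pass (limma adjusted p 0.223) but passed with the block (0.0184). OSGIN1 (NM_182981), an oxidative stress-induced growth inhibitor, was barely expressed, at 1.1 and 1.22 TPM with DMSO and at 1.87 and 1.66 TPM with JG342. Both treated libraries were higher, but the log2 fold change of 0.36 ± 0.20 SE did not pass (limma adjusted p 0.256).

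Across the 9 genes, 2 had both JG342 libraries above both DMSO libraries, 5 had them below, and 2 overlapped. Over all genes tested 62.1% did not overlap, 34% with JG342 higher and 28.2% with JG342 lower. The same-numbered pairs agreed in sign for 8 of the 9 genes, against 75.5% of all genes tested.

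**Figure D3:**
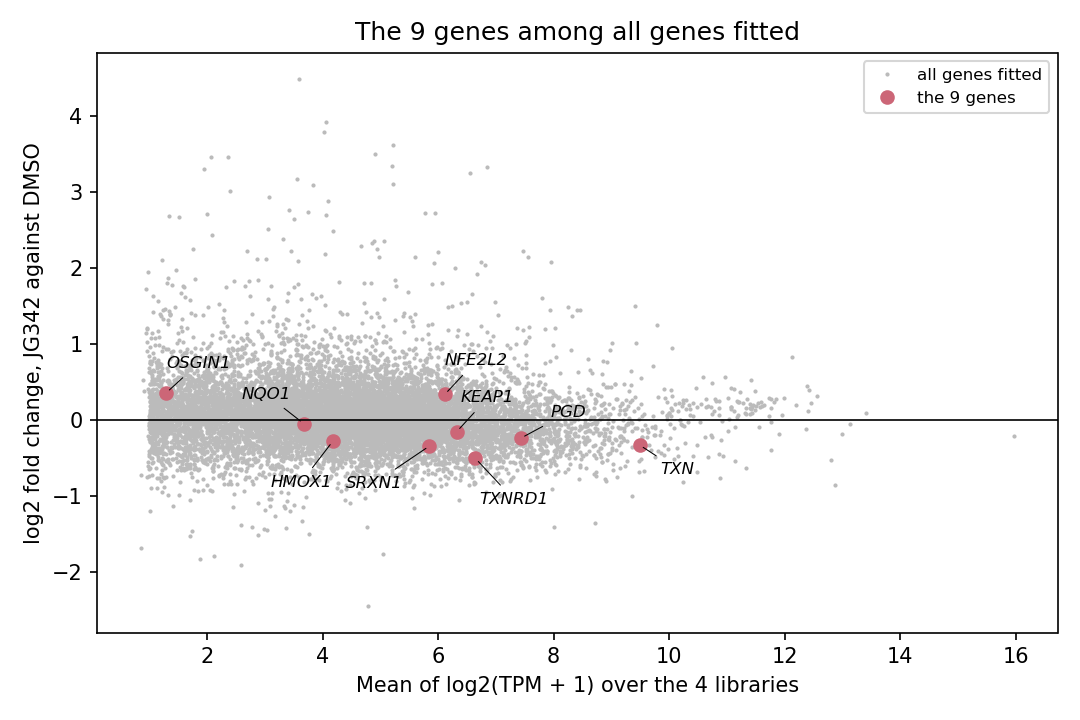
Log2 fold change against mean log2(TPM + 1) for all 12042 genes tested (grey) with the 9 genes in red. The 9 genes lie inside the main cloud, between -0.51 and 0.36.

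The same test was read for 95 further genes in 7 lists that cover the rest of the pathway, of which 92 were in the table and 87 were tested. Of these 87, 25 passed (28.7%, against 18.4% of all genes tested), 14 as higher and 11 as lower (10.8% and 7.62% of all genes). The median log2 fold change of the 87 was -0.05. The lists were chosen with earlier results of these data known. Their shares, here and list by list below, are therefore descriptions and not independent support. With the replicate number as a block 45 passed, 21 higher and 24 lower, against 34.9% of all genes. With the block and median scaling 42 passed, 14 higher and 28 lower, against 33.1% of all genes. Median scaling and quantile normalization kept the sign of each list's median but moved its size. In that order the median was 0.02 and 0.015 for the NRF2 partners, -0.16 and -0.05 for thioredoxin and -0.14 and -0.12 for quinones. Values without single libraries are given where they moved a list's median by more than 1.5 times. Of the 25 genes, 11 passed in each of the 4 fits that left out 1 library: NFE2L1, PRDX1, PRDX5, SESN2, SLC7A11, MGST2, CHAC1, IDH1, BLVRB, FECH and FTH1. The count was 15 without DMSO replicate 1 and 11 without DMSO replicate 2. With no filter on low values 13 passed: BACH1, DPP3, TXNRD3, SESN1, SLC7A11, GSTP1, CHAC1, PGLS, CBR3, FTL, SOD1 and SOD2 no longer did. Without the mean-variance trend 17 passed: PRDX2, PRDX3, SESN1, GSTP1, CBR3, FTL, SOD1 and SOD2 no longer did.

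Among the 19 partners, competitors and turnover factors of NRF2, 2 rose and 1 fell (15.8%, against 18.4% of all genes). The median was 0.09, -0.02 without DMSO replicate 1, 0.02 without JG342 replicate 1 and 0.14 without JG342 replicate 2. NFE2L1 (NM_001330261) encodes NRF1, a relative of NRF2 that drives proteasome genes. It was at 87.05 and 89.0 TPM with DMSO and at 447.5 and 343 TPM with JG342, and rose by 2.14 ± 0.13 SE (limma adjusted p 4.23e-05). In every library NFE2L1 was above NFE2L2. BACH1 (NM_001186), a repressor that competes for the same DNA elements, rose by 0.58 ± 0.14 from 18.1 to 27.6 TPM (limma adjusted p 0.0204), and DPP3 (NM_001256670), a peptidase that binds KEAP1, fell by 0.57 ± 0.11 from 65.9 to 44.2 TPM (limma adjusted p 0.0104). BACH1 lost its call without DMSO replicate 1 (0.109), DMSO replicate 2 (0.0785) or JG342 replicate 1 (0.0920), and DPP3 without DMSO replicate 1 (0.0646) or DMSO replicate 2 (0.0591). The remaining 16 did not pass, among them the small MAF genes, CUL3 and SQSTM1, whose product p62 sequesters KEAP1. SQSTM1 was at 523 and 459 TPM with DMSO and at 604 and 586 TPM with JG342 (limma adjusted p 0.0775, 0.00162 with the block, 0.115 with the block and median scaling). With the block 6 of the 19 passed, 4 higher and 2 lower, against 34.9% of all genes. With the block and median scaling 5 passed, 2 higher and 3 lower, against 33.1%.

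The 16 thioredoxin, peroxiredoxin and sestrin genes split, with 4 rising and 3 falling (43.75%, against 18.4% of all genes). With the block 10 passed, 5 in each direction, against 34.9% of all genes. The block and median scaling gave 4 higher and 6 lower, against 33.1%. The median was -0.09, but -0.01 without DMSO replicate 2 and 0.00 without JG342 replicate 2. TXN2, TXNRD2 and TXNL1, thioredoxin genes of the same list, did not pass, with log2 fold changes of 0.04, 0.22 and -0.01. Peroxiredoxins use thioredoxin to remove peroxides. PRDX1 (NM_001202431), the main cytosolic form, was at 621 and 647 TPM with DMSO and at 366 and 359 TPM with JG342, and fell by 0.80 ± 0.09 (limma adjusted p 0.000774). It shares 30.9% of its transcript with the neighbouring gene MMACHC, so part of its level is uncertain. PRDX3 (NM_001302272), the mitochondrial form, fell by 0.43 ± 0.09 from 221 to 164 TPM (limma adjusted p 0.0138). PRDX2 (NM_005809), another cytosolic form, fell by 0.40 ± 0.09 from 356 to 270.1 TPM with an adjusted p of 0.0152 from limma. The antisense gene AC018761.2 shares 20.4% of the PRDX2 transcript, so part of its level is uncertain too.

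In the opposite direction PRDX5 (NM_001358511), found in mitochondria, peroxisomes and cytosol, was at 368 and 374 TPM with DMSO and at 572 and 688 TPM with JG342. It rose by 0.76 ± 0.11 with an adjusted p of 0.00264 from limma. SESN2 (NM_031459), a stress-induced sestrin that restrains mTORC1, went from 16.6 and 24.75 TPM to 138 and 139 TPM, a rise of 2.72 ± 0.17 with an adjusted p of 4.27e-05 from limma. SESN1 and TXNRD3, named after their values were seen, rose by 0.50 ± 0.12 and 0.68 ± 0.21, with limma adjusted p 0.0208 and 0.04998. Without DMSO replicate 1 the calls of PRDX2 (0.0877), PRDX3 (0.0581) and SESN1 (0.05196) were lost, as they were without DMSO replicate 2 (0.102, 0.109 and 0.141), and that of SESN1 also without JG342 replicate 1 (0.0951). TXNRD3 was lost without any one library (0.0962 to 0.217) and with median scaling (0.0664), quantile normalization (0.0914) or a pseudocount of 0.1 (0.0576).

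Glutathione genes, 16 of them tested, gave 2 rises and 3 falls (31.25%, against 18.4% of all genes). With the block 11 passed, 4 higher and 7 lower, against 34.9% of all genes. The block and median scaling gave 9, 2 higher and 7 lower, against 33.1%. The median was -0.17, -0.11 without DMSO replicate 2 and -0.06 without JG342 replicate 2. GCLC and GCLM, the subunits of the enzyme that limits glutathione synthesis and classic NRF2 targets, did not pass: GCLC was at 20.45 and 19.9 TPM with DMSO and 15.9 and 15.1 TPM with JG342 (limma adjusted p 0.0774, 0.0263 with the block), and GCLM at 17.1 and 17.4 against 16.2 and 14.9 TPM (limma adjusted p 0.478). SLC7A11 (NM_014331), the cystine importer, was at 2.18 and 6.17 TPM with DMSO and at 13.2 and 13.6 TPM with JG342, and rose by 1.59 ± 0.32 (limma adjusted p 0.0104). Its control libraries lay well apart, and the rise ran from 1.00 to 2.18 when each library was left out, lowest without DMSO replicate 1. CHAC1 (NM_001142776), an enzyme that degrades glutathione, was at 3.53 and 28.3 TPM with DMSO and at 97.1 and 138 TPM with JG342, and rose by 3.34 ± 0.66 (limma adjusted p 0.0102). Its control libraries lay further apart still, and the rise was 1.99 without DMSO replicate 1 and 4.69 without DMSO replicate 2, and a robust fit did not call it (limma adjusted p 0.251).

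The 3 genes of this list that fell encode glutathione transferases. MGST2 (NM_001204366), a microsomal glutathione transferase, was at 16.6 and 18.8 TPM with DMSO and at 7.37 and 9.11 TPM with JG342, and fell by 1.02 ± 0.15 (limma adjusted p 0.00331). GSTO1 (NM_001191002), a cytosolic transferase, fell by 0.63 ± 0.11 from 105 to 67.2 TPM (limma adjusted p 0.00554), and missed the threshold narrowly without DMSO replicate 2 (0.0520). GSTP1 (NM_000852), named after its values were seen, fell by 0.39 ± 0.10 from 1157 to 885 TPM (limma adjusted p 0.0317), and lost its call without DMSO replicate 1 (0.185), DMSO replicate 2 (0.116) or JG342 replicate 2 (0.129), and with quantile normalization (0.0607).

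Of 12 pentose phosphate and NADPH genes, 2 rose and 1 fell (25%, against 18.4% of all genes). With the block 6 passed, 3 in each direction, against 34.9% of all genes. The median was 0.10, and 0.03 without DMSO replicate 1 or with median scaling. IDH1 (NM_001282386), the cytosolic NADP-dependent isocitrate dehydrogenase, was at 40.5 and 35.6 TPM with DMSO and at 175.05 and 136 TPM with JG342, and rose by 1.99 ± 0.14 (limma adjusted p 6.10e-05). PGLS (NM_012088), which acts one step before PGD, rose by 0.78 ± 0.14 from 25.9 to 45.3 TPM (limma adjusted p 0.00717). A long noncoding RNA gene, AC010618.3, shares 25.4% of the PGLS transcript, so part of its level is uncertain. TKT (NM_001064), the transketolase of the non-oxidative branch, fell by 0.50 ± 0.09 from 368 to 259 TPM (limma adjusted p 0.00623). Without DMSO replicate 2 PGLS and TKT missed the threshold (0.0562 and 0.0553).

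Of 9 haem and iron genes, 4 rose and 0 fell (44.4%, against 18.4% of all genes), and other fits also called lower genes. Median scaling gave 3 higher and 1 lower, the block 4 and 1, and both together 3 and 2. The block called 34.9% of all genes, and both together 33.1%. BLVRA, a biliverdin reductase named after its values were seen, had a log2 fold change of -0.39 (limma adjusted p 0.0545, 0.000595 with the block). The median of the list was 0.18, and between 0.11 with median scaling and 0.37 without DMSO replicate 1. FTH1 (NM_002032), the ferritin heavy chain that stores iron, was at 407 and 401 TPM with DMSO and at 1185 and 1103 TPM with JG342, and rose by 1.498 ± 0.09 (limma adjusted p 4.23e-05). BLVRB (NM_000713), a biliverdin and flavin reductase, was at 42.1 and 40.03 TPM with DMSO and at 72.8 and 73.1 TPM with JG342, and rose by 0.81 ± 0.10 (limma adjusted p 0.00155). FECH, the enzyme that inserts iron into haem, and FTL, the ferritin light chain, were named after their values were seen. They rose by 0.84 ± 0.14 and 0.44 ± 0.10, with limma adjusted p 0.00483 and 0.0183. FTL lost its call without DMSO replicate 1 (0.199) or DMSO replicate 2 (0.0994), with median scaling (0.0707) and with quantile normalization (0.0769). Transcripts of 13 other genes, 11 of them pseudogenes, match FTH1, and 1 pseudogene matches FTL, so their levels are uncertain.

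The 12 tested genes for quinones, aldehydes and conjugate export gave 1 fall and no rise (8.33%, against 18.4% of all genes, 7.62% as lower). With the block 5 passed, 1 higher and 4 lower, against 34.9% of all genes. The median was -0.07, -0.14 without JG342 replicate 1 and -0.01 without JG342 replicate 2. CBR3 (NM_001236), a carbonyl reductase, was at 21.9 and 23.7 TPM with DMSO and at 12.8 and 16.9 TPM with JG342, and fell by 0.60 ± 0.15 (limma adjusted p 0.0275). The call was lost without DMSO replicate 1 (0.0858), without DMSO replicate 2 (0.159) and without JG342 replicate 1 (0.111), and the antisense gene CBR3-AS1 shares 26.7% of its transcript. AKR1B10 and ALDH3A1, strong NRF2 targets in other tissues, were near the floor, at 0.57 to 2.06 and 0 to 0.13 TPM. AKR1C1 and PTGR1 were not analysed here.

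Of 3 superoxide and peroxide genes tested, 2 fell and 0 rose (66.7%, against 18.4% of all genes, 7.62% as lower). Both superoxide dismutases tested fell, and catalase did not pass. SOD3 was not analysed here. SOD1 (NM_000454), the cytosolic copper-zinc enzyme, was at 912 and 983 TPM with DMSO and at 682 and 757 TPM with JG342, and fell by 0.40 ± 0.10 (limma adjusted p 0.0228). SOD2 (NM_000636), the mitochondrial manganese enzyme, was at 34.9 and 34.04 TPM with DMSO and at 27.4 and 22.1 TPM with JG342, and fell by 0.47 ± 0.13 (limma adjusted p 0.0392). SOD1 lost its call without DMSO replicate 1 (0.0776), DMSO replicate 2 (0.178) or JG342 replicate 1 (0.0968). SOD2 lost its call without DMSO replicate 1 (0.157), DMSO replicate 2 (0.148) or JG342 replicate 2 (0.159). CAT was at 31.9 and 31.8 TPM with DMSO and 28.7 and 31.5 TPM with JG342 (limma adjusted p 0.669).

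**Figure D4:**
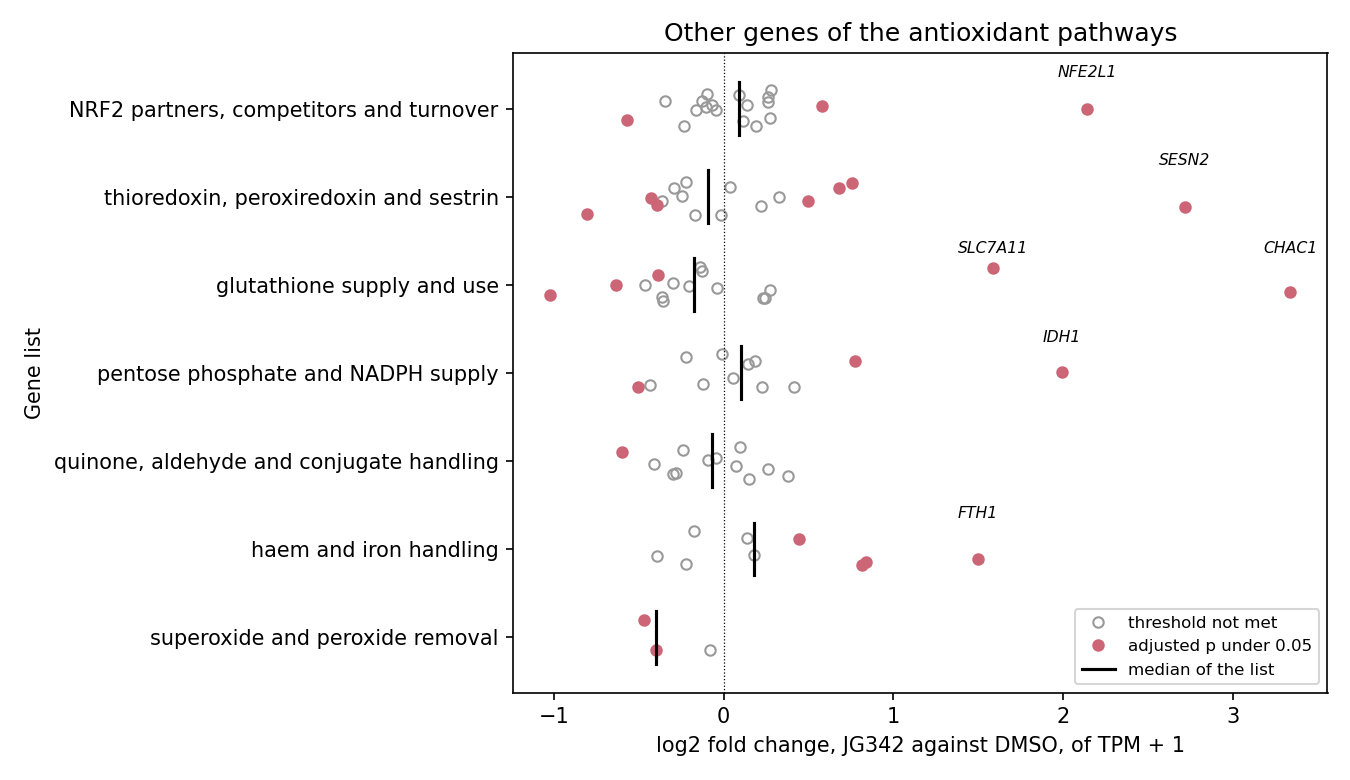
Log2 fold change of TPM + 1, JG342 against DMSO, for the 87 tested genes of 7 pathway lists; filled red points have an adjusted p under 0.05 and the vertical bar is the list's median. Genes past the threshold lie on both sides of 0 in 4 of the lists, and points beyond 1.4 in size are labelled.

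Genes with the pattern over the 4 libraries nearest to NFE2L2 and KEAP1 were found by Euclidean distance between log2(TPM + 1) profiles centred on each gene's mean. Nearest to NFE2L2 were CASC4 at a distance of 0.0170, TUBGCP6 at 0.0198 and C1orf226 at 0.0269, against a median of 0.446 over all genes tested. Nearest to KEAP1 were ZBTB7A at 0.00781, STAU2 at 0.0150 and BST2 at 0.0227, against a median of 0.360. These were picked as the smallest distances of all genes tested, so they lie below the median by selection. None of these neighbours passed the test (limma adjusted p 0.056 for CASC4, the lowest). Shared regulation was not tested.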

How the data were processed

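Total RNA of 4 libraries was sequenced on a BGISEQ-500, per the labels' protocols. The authors deposited 1 table of TPM per gene; the unit is not named and was inferred from the values (decimals, nearly equal library totals). The submitters' processing notes list HISAT2 2.0.4, Bowtie2 2.2.5 and RSEM 1.2.12, with no roles. The genome build, annotation and filters are not given in the sources used here, nor is whether counting used strand.

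The 12042 of 16057 genes whose mean reached 1 TPM were tested on log2(TPM + 1) with limma 3.58.1 in R 4.3.3 (eBayes with trend, treatment only, 2 residual degrees of freedom, two-sided, Benjamini-Hochberg over all genes, threshold 0.05). The script was tested on simulated data. The replicate numbers were taken to pair the libraries. The labels give same-numbered libraries a common prefix in their descriptions without saying what it stands for. Deviations of same-numbered libraries from treatment means correlate across genes at a Pearson r of 0.27 (Spearman 0.30). The labels state no model, so the main fit used treatment only and the block was an alternative. The design text calls the libraries biological duplicates without saying what was repeated, so p-values reach no further than spread between these libraries. Each gene's variance was moderated toward that of genes at a like level, with 6.89 prior against 2 residual degrees of freedom. TPM hold no read depth. The block fit has an infinite prior, so its variances follow expression level alone.

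The 9 genes and the pathway lists were chosen with earlier results of these data known. Named pathway genes are, per list, up to 2 passing genes of smallest p in each direction. Other named genes were chosen after their values were seen, apart from the genes nearest in pattern (3 each). Near-identical copies were sought with BLAST 2.17.0 in GENCODE release 29 transcripts (95% identity over at least 20% of the transcript). Alternatives tried were the block, median scaling, both, quantile normalization, other pseudocount, filter and variance settings, and leaving out each library.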

Additional observations from a re-analysis of the deposited data

Results flagged for a closer look

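ABCC2, an export pump for conjugates and a gene of the pathway lists, was left out of the test because its mean was below 1 TPM. It is listed here because both JG342 libraries were above both DMSO libraries: 1.16 and 0.99 TPM (mean 1.075) against 0.81 and 0.67 TPM. Of all genes tested, which do not include ABCC2, 34% had both JG342 libraries above both DMSO libraries. ABCC2 lay near the floor. The other list genes below the filter, GPX1, AKR1C2, ALDH3A1 and ABCC3, did not have this order. The main test left ABCC2 out, and the fit with no filter on low values did not call it.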

How the results depend on the processing

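With the replicate block, which pairs same-numbered libraries, 4207 of the genes tested passed, 5 of the 9 genes (NFE2L2 at 0.33 and PGD at -0.24 added) and 45 other pathway genes; it changed no other call among the 9 genes. The block with median scaling gave 3985, 6 (NFE2L2 at 0.27, HMOX1 at -0.35 and PGD at -0.31 added) and 42. With no filter 828, 0 and 13 passed, and TXNRD1 (-0.51), SRXN1 (-0.35) and TXN (-0.33) missed the threshold at unchanged folds. Without the trend 1 of the 9 genes passed, SRXN1 (-0.35) and TXN (-0.33) being lost, and quantile normalization lost TXN (-0.26). Leaving out 1 library gave 773 to 1905 genes, 0 to 2 of the 9 genes and 11 to 23 other pathway genes, the lone library of a treatment being assumed to vary like the others. Log2 fold changes then ran from 0.24 to 0.43 for NFE2L2, from -0.59 to -0.43 for TXNRD1, from -0.40 to -0.29 for SRXN1 and from -0.39 to -0.28 for TXN. NQO1 ran from -0.26 to 0.16, turning its sign without DMSO replicate 2 (0.16) and without JG342 replicate 1 (0.02). The cause of these changes was not tested.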
